A study of Mus musculus with 10 samples.

Results

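The 32 genes described here are immediate early genes, feedback regulators of the same signals and heat shock chaperones, a set known to respond quickly when tissue is dissociated. They were taken by name from a list, and all 32 were found among the 53379 genes counted and among the 14528 genes with enough counts to be tested. By role they comprised 8 subunits of AP-1 or related bZIP factors, 10 zinc finger or nuclear receptor factors, 9 feedback regulators and 5 chaperones. RNA sequencing was done on sorted splenic dendritic cells of C57BL/6 mice, in a series on autophagy-deficient dendritic cells and atherosclerosis.

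At 16 weeks of age, mice were either wild type for Atg16l1 (Atg16l1 +/+, WT) or knockout (Atg16l1 -/-, KO). Atg16l1 encodes a scaffold that directs LC3 lipidation in autophagy, and the labels name neither the deleted part of the gene nor a promoter or cell type that drives the deletion. The 4 groups were CD11b WT and CD8 WT, with 3 libraries each, and CD11b KO and CD8 KO, with 2 libraries each, where CD11b and CD8 are the labels of the sorted subset. Libraries are named by label and number (CD8 KO 2). Per the labels' protocols each spleen came from an individual mouse and was digested with collagenase D, dispase I and DNase I for 45 min at 37 °C. Cells were then selected on CD11c beads and sorted, and no library from undigested or fixed cells was analysed here, so the part of cell handling in these levels was not tested.

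Gene counts ranged from 9467704 to 13768884 per library. Levels are in CPM, a gene's counts scaled to a common library total. For Atg16l1 they were 13.3 to 32.7 CPM in WT and 1.73 to 3.31 CPM in KO. Subset markers went against the subset label in 10 of 10 libraries. Libraries labelled CD11b had 448 to 578 CPM of Cd8a and 1.58 to 2.73 CPM of Itgam, the gene of CD11b, whereas libraries labelled CD8 had 0.905 to 5.87 CPM of Cd8a and 76.1 to 104 CPM of Itgam. Xcr1, a marker of type 1 conventional dendritic cells, and Sirpa, a marker of type 2, followed the same opposite pattern, with 290.0 to 442 against 7.14 to 11.3 CPM for Xcr1 and 23.9 to 29.2 against 553 to 629 CPM for Sirpa. Directions are therefore given between libraries labelled CD11b and libraries labelled CD8. In bulk libraries, fewer cells of a type and less RNA per cell cannot be told apart.

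Immediate early genes are switched on within minutes of a signal without new protein synthesis, because their promoters are read by factors that are already present. Kinases of the MAPK family activate serum response factor and its Elk partners at CArG boxes and the CREB family at cyclic AMP response elements (CRE), while heat shock factor 1 acts at heat shock elements (HSE). Many of the products are themselves transcription factors, and others, such as the dual-specificity phosphatases, switch the signal off again. In dendritic cells the same genes also take part in sensing and maturation, and enzymatic digestion at body temperature is known to induce many of them.

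Promoter sequence was available for 27 of the 32 genes in RefSeq windows of GRCm38.p6 that run from 250 bases before to 50 bases after a start site. The promoters of 5 genes are shown as examples, and the part of promoter sequence in the spread between libraries was not tested. They are Fos, Hspa1a and Hspa1b, among those that differed most between libraries of a group, and the abundant Nr4a3 and Dusp5, which differed less than these. Each is printed 5′ to 3′ on the gene's strand up to the first annotated start, as Fos at chr12:85473640-85473889 (+), Hspa1a at chr17:34972157-34972406 (-), Hspa1b at chr17:34959239-34959488 (-), Nr4a3 at chr4:48045055-48045152 (+) and Dusp5 at chr19:53528895-53529108 (+). Capitals mark the CRE core on either strand in Fos, Nr4a3 and Dusp5, the HSE pair in Hspa1a and Hspa1b, and in Dusp5 also 2 adjoining CArG boxes.
Fos: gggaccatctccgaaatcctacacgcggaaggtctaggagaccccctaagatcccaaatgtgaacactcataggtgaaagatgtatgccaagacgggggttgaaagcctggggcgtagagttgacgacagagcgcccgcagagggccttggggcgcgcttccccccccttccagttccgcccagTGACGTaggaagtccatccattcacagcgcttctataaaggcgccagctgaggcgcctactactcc
Hspa1a: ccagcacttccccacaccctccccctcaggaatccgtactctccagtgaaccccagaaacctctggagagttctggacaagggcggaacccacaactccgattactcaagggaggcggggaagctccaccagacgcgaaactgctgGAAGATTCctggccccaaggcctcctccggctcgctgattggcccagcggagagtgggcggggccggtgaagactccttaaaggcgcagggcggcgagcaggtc
Hspa1b: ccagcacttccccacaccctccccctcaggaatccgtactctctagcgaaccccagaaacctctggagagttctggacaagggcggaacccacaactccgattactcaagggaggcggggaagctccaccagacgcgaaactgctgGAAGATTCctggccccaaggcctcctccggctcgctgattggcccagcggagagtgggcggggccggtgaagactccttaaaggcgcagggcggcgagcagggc
Nr4a3: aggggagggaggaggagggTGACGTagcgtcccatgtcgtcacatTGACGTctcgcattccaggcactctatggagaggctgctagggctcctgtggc
Dusp5: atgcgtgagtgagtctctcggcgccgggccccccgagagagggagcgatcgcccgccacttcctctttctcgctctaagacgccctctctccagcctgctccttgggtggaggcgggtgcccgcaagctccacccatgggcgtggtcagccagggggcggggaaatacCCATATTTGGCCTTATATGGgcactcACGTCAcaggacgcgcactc

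Hspa1a and Hspa1b are neighbouring copies on chromosome 17, and their promoters were the same at 296 of 300 bases. The searches covered both strands, except for TATAAA, and a match describes letters in a window and is not a measured binding site. The CRE core TGACGT was found in 8 of the 27 genes (Atf3, Btg2, Dusp1, Dusp5, Egr2, Fos, Maff and Nr4a3) and in 7.51% of all 32851 windows. Its longer form TGACGTCA, which contains the core on both strands, was found in Btg2, Dusp1 and Maff and in 1.79% of all windows. CArG boxes were found in Dusp5, Egr2 and Zfp36 and in 1.63% of all windows. Bases farther upstream, in Fos as in the other genes, were not searched. Egr1, Egr3, Ier2, Klf10 and Hspa8 had no window and were not searched for any motif. The HSE pair (GAANNTTC or TTCNNGAA) was found in Egr2, Fosl2, Hspa1a, Hspa1b, Hsph1 and Jun and in 15.1% of all windows, and an HSE of 3 such units in Hsph1 and in 0.603% of all windows. EGR motifs (GCGNGGGCG) were found in 9 genes and in 5.55% of windows, the AP-1 motif TGANTCA in Csrnp1 and in 7.81%, and TATAAA on the gene's strand in Fos and Junb and in 8.32%. Genes have 1 to several windows, so shares of genes and of windows do not compare directly.

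The set held some of the most abundant transcripts of these cells. Shares are of the scaled library total, as summed CPM. Together the 32 genes took 2.16% to 2.22% in CD11b WT and 1.9% and 2.01% in CD11b KO. At the label CD8 they took 2.61% to 3.12% in WT, and 2.48% and 2.17% in KO. Ranked by mean CPM among the genes tested, Nr4a3 stood at 13, Nr4a1 at 24, Fosb at 28, Btg2 at 40 and Zfp36 at 46. Per kb of exon, as the mean of the 4 groups, the nuclear receptor genes Nr4a3 (891 CPM per kb) and Nr4a1 (757 CPM per kb) led, followed by the antiproliferative gene Btg2 (518), the AP-1 subunit Junb (461) and the ERK phosphatase gene Dusp5 (448). At the other end were Hspa1b (2.46 CPM per kb), Hspa1a (3.46), the ERK phosphatase gene Dusp6 (3.99) and Hsph1 (7.42). The constitutive chaperone gene Hspa8 stood at 137 CPM per kb, far above the inducible pair Hspa1a and Hspa1b. Reads that map to both copies of this pair were not counted, while the full exon length was used. The values of the pair may therefore be too low.

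**Figure D1:**
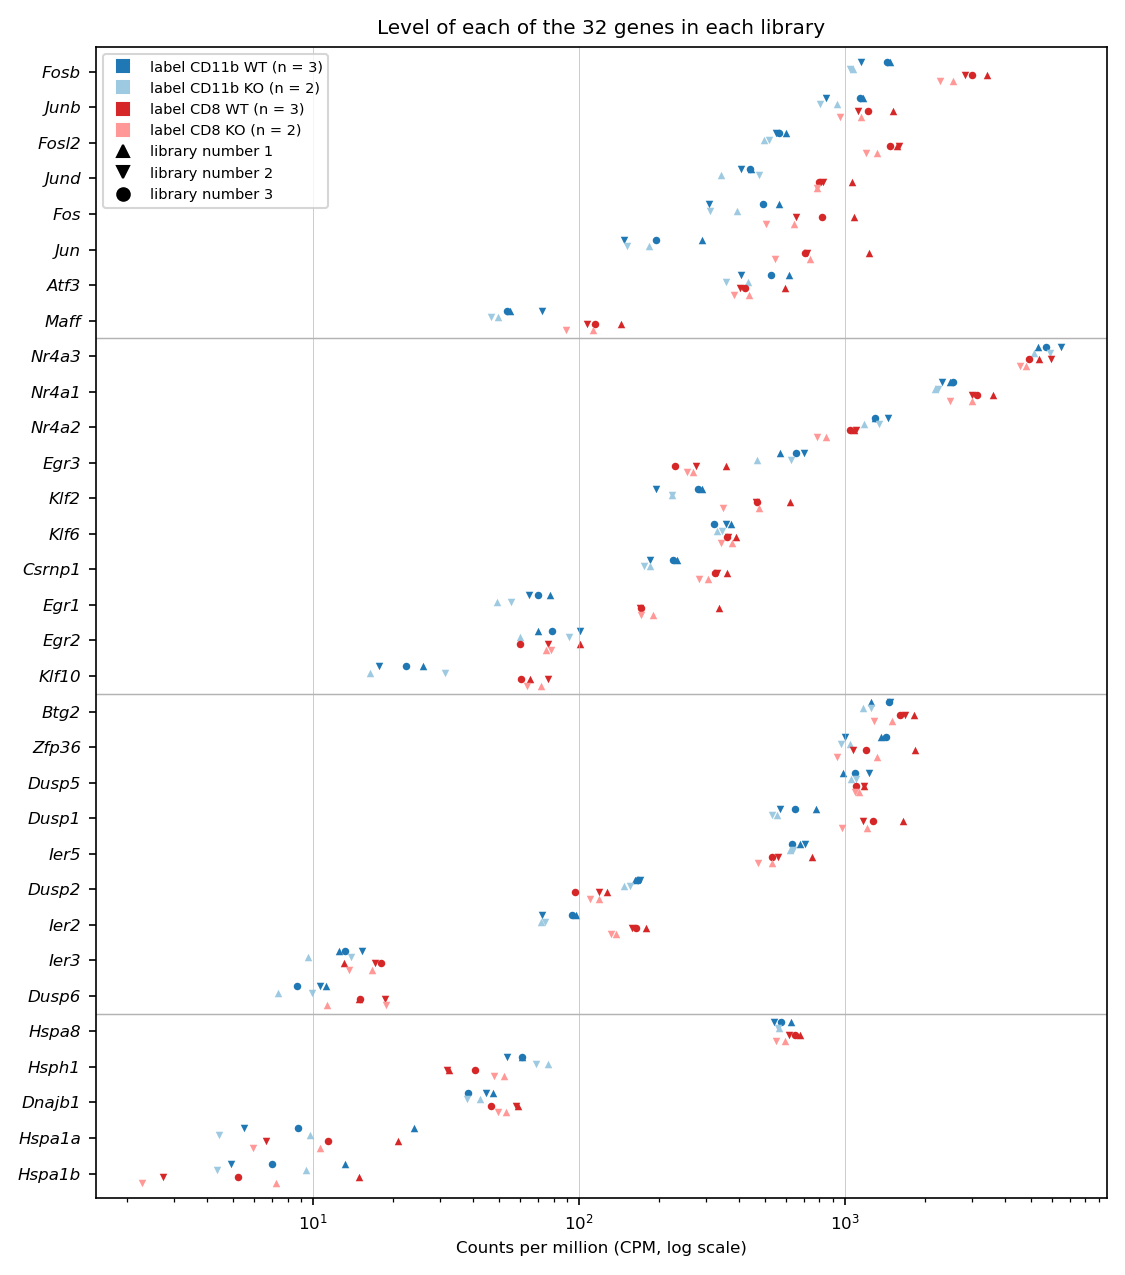
Level of each gene in each of the 10 libraries, in CPM on a log scale, with genes grouped by role (AP-1 and related subunits, zinc finger or nuclear receptor factors, feedback regulators, chaperones) and ordered by mean level. Colours give the 4 groups and symbols the library number. Nr4a3 sits highest, at 4534 to 6477 CPM, and Hspa1b lowest, at 2.26 to 14.9 CPM.

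The largest differences in the set lay between the 2 subset labels. In WT, 18 of the 32 genes were called by edgeR at an adjusted p under 0.05, against 29.5% of all genes tested. Of these, 14 were lower at the label CD11b (15.7% of all genes) and 4 were higher (13.8%). In KO, 17 were called (22.8% of all genes), 13 lower (12.5%) and 4 higher (10.3%). The same 17 genes were called in WT and KO. Btg2 was called in WT alone (log2 fold change −0.28 ± 0.08 SE, edgeR adjusted p = 0.00943), and its effect in KO was −0.21 ± 0.10 SE. The difference between these effects did not pass (edgeR adjusted p = 0.981). Over the set the median log2 fold change was −0.29 in both genotypes, beside 0.003 over all genes tested in WT and −0.008 in KO. The median in KO was −0.15 without CD8 KO 1.

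Among the AP-1 subunits, 6 of 8 were lower at the label CD11b in both genotypes: Fos, Fosb, Fosl2, Jun, Jund and Maff. Jun (ENSMUSG00000052684, chr4:95049034-95052222), the partner of Fos proteins in the classic AP-1 dimer, differed most. Its level was 288, 147 and 195 CPM in CD11b WT and 1228, 719.6 and 707 CPM in CD8 WT, and 182 and 151 CPM in CD11b KO against 735 and 542 CPM in CD8 KO. No library labelled CD11b reached any library labelled CD8. The log2 fold change was −2.07 ± 0.20 SE in WT (edgeR adjusted p = 1.54e-08) and −1.94 ± 0.25 SE in KO (edgeR adjusted p = 1.57e-06).

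Fosl2 (ENSMUSG00000029135, chr5:32135801-32157842), a Fos family member with slower kinetics, had the smallest adjusted p of the set. It stood at 599, 551 and 564 CPM in CD11b WT, 496 and 516 CPM in CD11b KO, 1566, 1594 and 1477 CPM in CD8 WT, and 1314 and 1200.4 CPM in CD8 KO. Its groups were tight and the labels far apart, and the log2 fold change was −1.44 ± 0.08 SE in WT (edgeR adjusted p = 4.3e-13) and −1.31 ± 0.09 SE in KO (edgeR adjusted p = 1.19e-10). Fosb, the most abundant subunit gene by CPM, stood at 1473, 1148 and 1433 CPM in CD11b WT and 1066 and 1042 CPM in CD11b KO. Libraries labelled CD8 held 3408, 2817 and 3007 CPM in WT against 2544 and 2272 CPM in KO, so that every library labelled CD8 exceeded every library labelled CD11b. Its log2 fold change was −1.19 in both genotypes.

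Fos (ENSMUSG00000021250, chr12:85473890-85477273) stood at 561, 308 and 492 CPM in CD11b WT, 391 and 310.5 CPM in CD11b KO, 1080.3, 652 and 816 CPM in CD8 WT, and 643 and 503.3 CPM in CD8 KO. Labels did not overlap within a genotype, but the highest library labelled CD11b exceeded the lowest labelled CD8 when genotypes were crossed. The log2 fold change was −0.90 ± 0.17 SE in WT (edgeR adjusted p = 0.000208) and −0.71 ± 0.21 SE in KO (edgeR adjusted p = 0.0152). The call in KO was lost without CD11b KO 2 (adjusted p = 0.175), without CD8 KO 1 (0.179) and with DESeq2 (0.142).

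Jund, an AP-1 subunit gene with high basal expression, stood at 441, 405 and 439 CPM in CD11b WT and 341 and 475 CPM in CD11b KO, against 1062, 827 and 800.2 CPM in CD8 WT and 783 and 782 CPM in CD8 KO. Maff, which encodes a small Maf protein, stood at 55.1, 72.5 and 53.4 CPM in CD11b WT, 49.3 and 46.4 CPM in CD11b KO, 143, 107 and 115 CPM in CD8 WT, and 112 and 88.9 CPM in CD8 KO. Both were lower in each library labelled CD11b, with WT log2 fold changes of −1.07 for Jund and −1.01 for Maff. Atf3 and Junb, the remaining members of the group, did not pass in edgeR. Junb had −0.29 ± 0.12 SE in WT (edgeR adjusted p = 0.0611), and was called there by limma-voom (adjusted p = 0.0324) and by edgeR without CD11b WT 1 (0.0257) or CD8 WT 2 (0.038). Atf3, a stress-induced repressor of the ATF family, stood at 614, 405 and 525 CPM in CD11b WT, 429 and 358 CPM in CD11b KO, 596, 401 and 420.1 CPM in CD8 WT, and 433 and 381 CPM in CD8 KO. Its labels overlapped in both genotypes, and the log2 fold change was 0.13 ± 0.14 SE in WT.

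The EGR family of zinc finger factors and the NR4A family split between the labels. Egr1 stood at 77.7, 64.7 and 69.7 CPM in CD11b WT and 49 and 55.2 CPM in CD11b KO, against 335, 169.6 and 170.4 CPM in CD8 WT and 190 and 170.4 CPM in CD8 KO. Egr3, its close relative, showed the opposite order, with 568, 699 and 654 CPM in CD11b WT, 466 and 627 CPM in CD11b KO, 357, 275 and 228 CPM in CD8 WT, and 268 and 254 CPM in CD8 KO. Neither gene overlapped between labels. The log2 fold changes in WT were −1.67 ± 0.18 SE for Egr1 (edgeR adjusted p = 1.1e-07) and 1.16 ± 0.13 SE for Egr3 (edgeR adjusted p = 1.69e-07). In KO they were −1.79 and 1.07. Egr2 did not pass, at 0.08 ± 0.17 SE in WT.

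The NR4A genes encode orphan nuclear receptors induced by antigen receptor and inflammatory signals. Nr4a1 stood at 2487, 2309 and 2544 CPM in CD11b WT, 2174 and 2238 CPM in CD11b KO, 3593, 3008 and 3136 CPM in CD8 WT, and 2985 and 2472 CPM in CD8 KO. It was lower at the label CD11b in WT (−0.41 ± 0.08 SE, edgeR adjusted p = 0.000245) and in KO (−0.31 ± 0.10 SE, edgeR adjusted p = 0.022), the latter lost without CD11b KO 1 (adjusted p = 0.125), CD11b KO 2 (0.0707) or CD8 KO 1 (0.371). Nr4a2 went the other way, with 1296, 1452 and 1289 CPM in CD11b WT, 1181 and 1335 CPM in CD11b KO, 1075, 1097 and 1046 CPM in CD8 WT, and 847 and 782 CPM in CD8 KO. Every library labelled CD11b exceeded every library labelled CD8, and the log2 fold change was 0.33 ± 0.08 SE in WT (edgeR adjusted p = 0.00178) and 0.63 ± 0.09 SE in KO (edgeR adjusted p = 1.65e-05). Nr4a3 did not pass in edgeR in WT (0.11 ± 0.08 SE) or KO (0.23 ± 0.10 SE, edgeR adjusted p = 0.0894), and limma-voom called it in KO (adjusted p = 0.014).

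Among the other transcription factors, Klf2, Klf10 and Csrnp1 were lower at the label CD11b. Klf2, a factor linked to quiescence and trafficking in lymphocytes, stood at 289, 194 and 281 CPM in CD11b WT, 224 and 222 CPM in CD11b KO, 622, 461 and 465 CPM in CD8 WT, and 473 and 347 CPM in CD8 KO. Klf10, a TGF-beta inducible factor, was the scarcest of the 3, at 25.8, 17.6 and 22.4 CPM in CD11b WT, 16.4 and 31.3 CPM in CD11b KO, 65, 76.2 and 60.3 CPM in CD8 WT, and 71.6 and 63.8 CPM in CD8 KO. Neither overlapped between labels, and WT log2 fold changes were −1.02 for Klf2 and −1.61 for Klf10. Csrnp1 stood at 233, 184 and 224 CPM in CD11b WT, 185 and 175 CPM in CD11b KO, 360.4, 329 and 325 CPM in CD8 WT, and 304 and 282 CPM in CD8 KO, with a WT log2 fold change of −0.66. Klf6 did not pass, at −0.08 ± 0.09 SE in WT, and varied between 321 and 389 CPM over all 10 libraries.

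The feedback regulators did not all go one way, and 7 of the 9 had negative values in each genotype. Dusp1, a nuclear phosphatase of p38 and JNK, stood at 779, 566 and 649 CPM in CD11b WT, 553 and 529 CPM in CD11b KO, 1649, 1166 and 1276 CPM in CD8 WT, and 1203 and 976 CPM in CD8 KO. Its labels did not overlap, and the effect in WT was −1.04 ± 0.12 SE on the log2 scale (edgeR adjusted p = 2.11e-07). Ier2 stood at 97.3, 72.1 and 94.1 CPM in CD11b WT, 71.7 and 74 CPM in CD11b KO, 178, 158 and 164 CPM in CD8 WT, and 137 and 132 CPM in CD8 KO, again without overlap and with an effect of −0.92 ± 0.12 SE in WT (edgeR adjusted p = 8.75e-07). Dusp2, a nuclear MAPK phosphatase of immune cells, was instead higher at the label CD11b, by 0.53 ± 0.11 SE in WT (edgeR adjusted p = 0.000407) and 0.40 ± 0.13 SE in KO (edgeR adjusted p = 0.0276). The KO call of Dusp2 was lost without CD11b KO 1 (adjusted p = 0.0666), CD11b KO 2 (0.128), CD8 KO 1 (0.0666) or CD8 KO 2 (0.169), and with unstranded counts (0.0592). The WT call of Btg2 was lost without CD11b WT 1 (0.0593) or CD8 WT 1 (0.0606). Zfp36, which encodes an mRNA-destabilising protein, and Dusp5, Dusp6, Ier3 and Ier5 did not pass in edgeR in either genotype, with WT values of −0.12, −0.06, −0.67, −0.24 and 0.12. Ier5 was called higher in KO by limma-voom (adjusted p = 0.0313) and by edgeR with only the libraries compared (0.0307), and without CD8 WT 1 by edgeR in WT (0.0228) and in KO (0.0218). Dusp6 was called lower in KO without CD8 KO 1 (edgeR adjusted p = 0.0419).

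Of the 5 chaperones only Hsph1, an HSP110 nucleotide exchange factor, was called between labels. It stood at 60.7, 53.4 and 60.9 CPM in CD11b WT and 76.4 and 68.6 CPM in CD11b KO, against 32.5, 31.7 and 40.7 CPM in CD8 WT and 52.1 and 47.7 CPM in CD8 KO. It was higher at the label CD11b in WT (0.74 ± 0.14 SE, edgeR adjusted p = 0.000185) and in KO (0.54 ± 0.17 SE, edgeR adjusted p = 0.0207). The call in KO was lost without CD11b KO 1 (adjusted p = 0.147), CD8 KO 1 (0.0588) or CD8 KO 2 (0.135). Hspa1a, Hspa1b, Hspa8 and Dnajb1, an HSP40 co-chaperone, had WT log2 fold changes of −0.02, 0.14, −0.15 and −0.32, and Dnajb1 was called in WT without CD8 WT 3 (edgeR adjusted p = 0.0463).

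**Figure D2:**
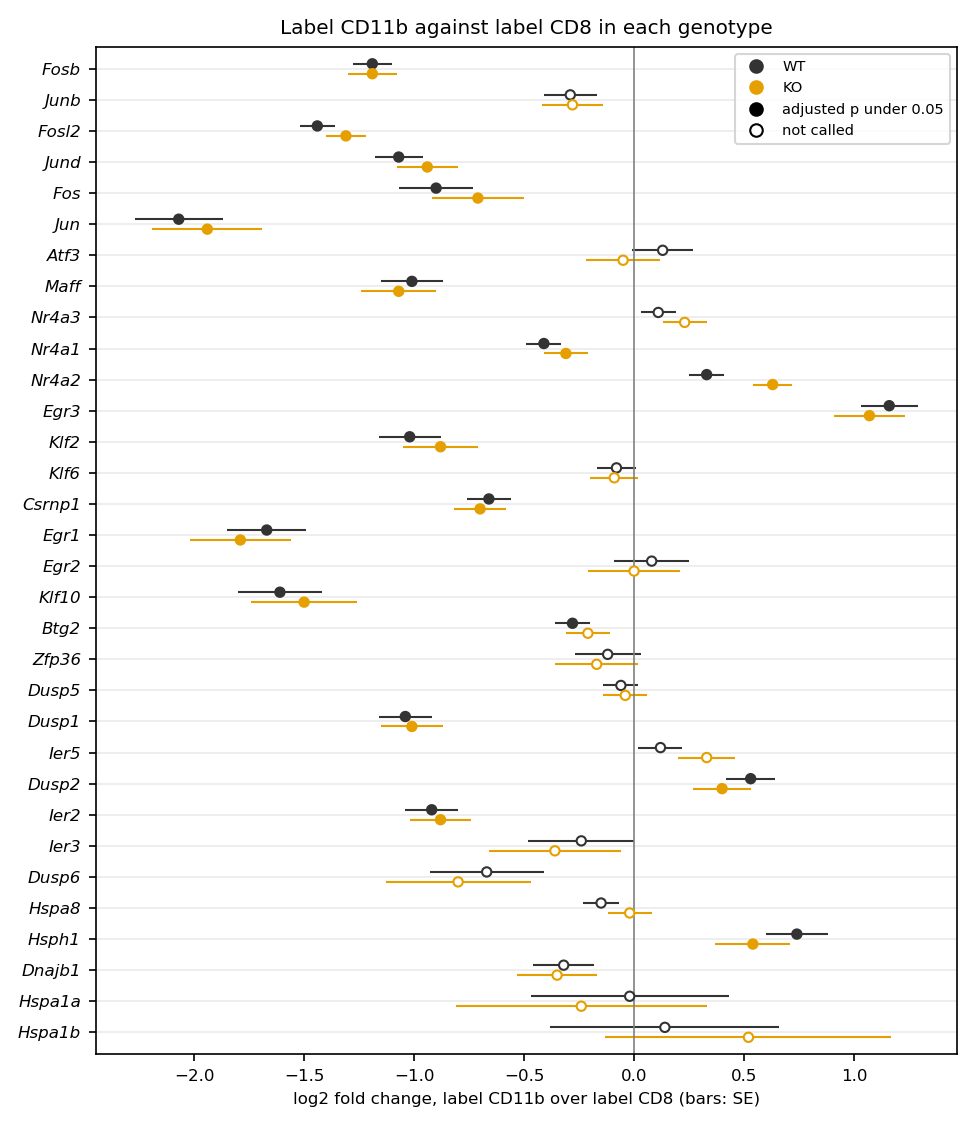
Log2 fold change of the label CD11b over the label CD8 for each gene, in WT (black) and KO (orange), with bars for the SE and filled points for an adjusted p under 0.05. Jun, Egr1, Klf10 and Fosl2 lie farthest below 0 in both genotypes, and Egr3 lies farthest above 0 in both, at 1.16 and 1.07.

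Other genes of the same pathways were compared from lists, whose counts stand beside 15.7% of all genes lower and 13.8% higher in WT, and 12.5% lower and 10.3% higher in KO. Of 36 other early response genes tested, 21 were lower and 5 higher at the label CD11b in WT, and 19 were lower and 3 higher in KO. Cebpb, a bZIP factor of myeloid cells, stood at a mean of 7.77 CPM in CD11b WT and 126 CPM in CD8 WT (log2 fold change −4.04 ± 0.21 SE). Klf4 (−2.35 ± 0.11 SE) and the IκB family gene Nfkbiz (−1.89 ± 0.10 SE) were also lower there, while the pseudokinase gene Trib1 was higher (1.44 ± 0.09 SE). Of 21 upstream kinases and factors, 7 were lower and 4 higher in WT and 5 each way in KO, led by Elk3, a partner of serum response factor, at −2.75 ± 0.22 SE in WT. Chaperones outside the set leaned the other way, with 7 of 19 higher and 1 lower in WT and 4 higher and 1 lower in KO. Hsp90ab1 (0.49 ± 0.07 SE) and Hspa5 (0.59 ± 0.08 SE) were among those higher in WT, and Dnajb4 was the lower one. Of 14 other dual-specificity phosphatases, 4 were lower and 1, Dusp4, higher in WT, and 3 were lower and 0 higher in KO. With lists this short, the phosphatase counts and the 4 higher upstream genes lie near the shares of all genes.

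With loss of Atg16l1 the edgeR model called 0 of the 32 genes at either label, while DESeq2 and limma-voom called a few at the label CD8, all lower in KO. Most point estimates were negative at both labels. At the label CD11b, 0 of 32 genes were called by edgeR (0.145% of all genes), 0 by DESeq2 (0.289%) and 0 by limma-voom (0.103%). There, 10 genes had an unadjusted p under 0.05 (6.42% of all genes), 9 of them lower in KO. Negative values were found for 30 of 32 genes (50.9% of all genes), and the median was −0.21, beside −0.007 over all genes. In 8 genes every KO library lay under every WT library (10.1% of all genes), namely Fosb, Fosl2, Egr1, Dusp1, Dusp2, Nr4a1, Btg2 and Maff. In 1 gene, Hsph1, every KO library lay above every WT library (10.3% of all genes). The median moved to −0.12 without the 4 libraries numbered 1.

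At the label CD8, 0 of 32 genes were called by edgeR (0.145% of all genes), 2 by DESeq2 (0.412%) and 4 by limma-voom (0.434%). An unadjusted p under 0.05 was found for 14 genes (6.52% of all genes), 13 of them lower in KO. Values were negative for 30 of 32 genes (49.7% of all genes), with a median of −0.26, beside 0.0 over all genes. In 12 genes every KO library lay under every WT library (11.9% of all genes), namely Fos, Fosb, Fosl2, Jund, Ier2, Ier5, Nr4a1, Nr4a2, Nr4a3, Hspa8, Btg2 and Csrnp1. Hsph1 was again the 1 gene with every KO library above every WT library (12.1% of all genes). Single libraries weighed on this median, which was −0.13 without CD8 KO 2 and −0.14 without CD8 WT 1.

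Nr4a2 at the label CD8 came closest to a call. Its KO libraries (847 and 782 CPM) lay under its WT libraries (1046 to 1097 CPM), and the log2 fold change was −0.40 ± 0.09 SE (edgeR adjusted p = 0.0727, DESeq2 adjusted p = 0.00204, limma-voom adjusted p = 0.00152). A fit of the label CD8 alone gave −0.39 (edgeR adjusted p = 0.0192), and the fit without the 4 libraries numbered 1 gave −0.45 (edgeR adjusted p = 0.0344). Leaving out 1 library labelled CD8 gave no call by edgeR, with adjusted p of 0.972 without CD8 KO 2 (−0.33), 0.22 without CD8 WT 2, 0.157 without CD8 WT 3, 0.114 without CD8 WT 1 and 0.102 without CD8 KO 1. Fosl2 was called at this label by DESeq2 (adjusted p = 0.0334) and limma-voom (adjusted p = 0.00325), with −0.30 ± 0.08 SE in edgeR (edgeR adjusted p = 0.267). Fosb (−0.35 ± 0.10 SE) and Btg2 (−0.29 ± 0.09 SE) were called by limma-voom, with adjusted p of 0.00704 and 0.0351. At the label CD11b, Fosb had −0.36 ± 0.10 SE (edgeR adjusted p = 0.328), with 1066 and 1042 CPM in KO under 1148 to 1473 CPM in WT. Without CD11b WT 2, the lowest WT library for this gene, its adjusted p was 0.0243, while it was 0.502 without CD11b WT 1, 0.657 without CD11b WT 3, 0.765 without CD11b KO 1 and 0.591 without CD11b KO 2.

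By role, all 8 AP-1 subunits had negative values at both labels, from −0.39 to −0.07 at the label CD11b and from −0.57 to −0.20 at the label CD8. The 9 feedback regulators also had no positive value, with medians of −0.21 and −0.28. Among the 10 other transcription factors 9 were negative at each label, and Klf10 was the exception (0.13 and 0.01). Hsph1 alone among the chaperones was positive, with 0.31 ± 0.15 SE at the label CD11b (edgeR adjusted p = 0.778) and 0.51 ± 0.15 SE at the label CD8 (edgeR adjusted p = 0.34). Hspa1a had the most negative value at the label CD11b, −0.86, but with an SE of 0.53.

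**Figure D3:**
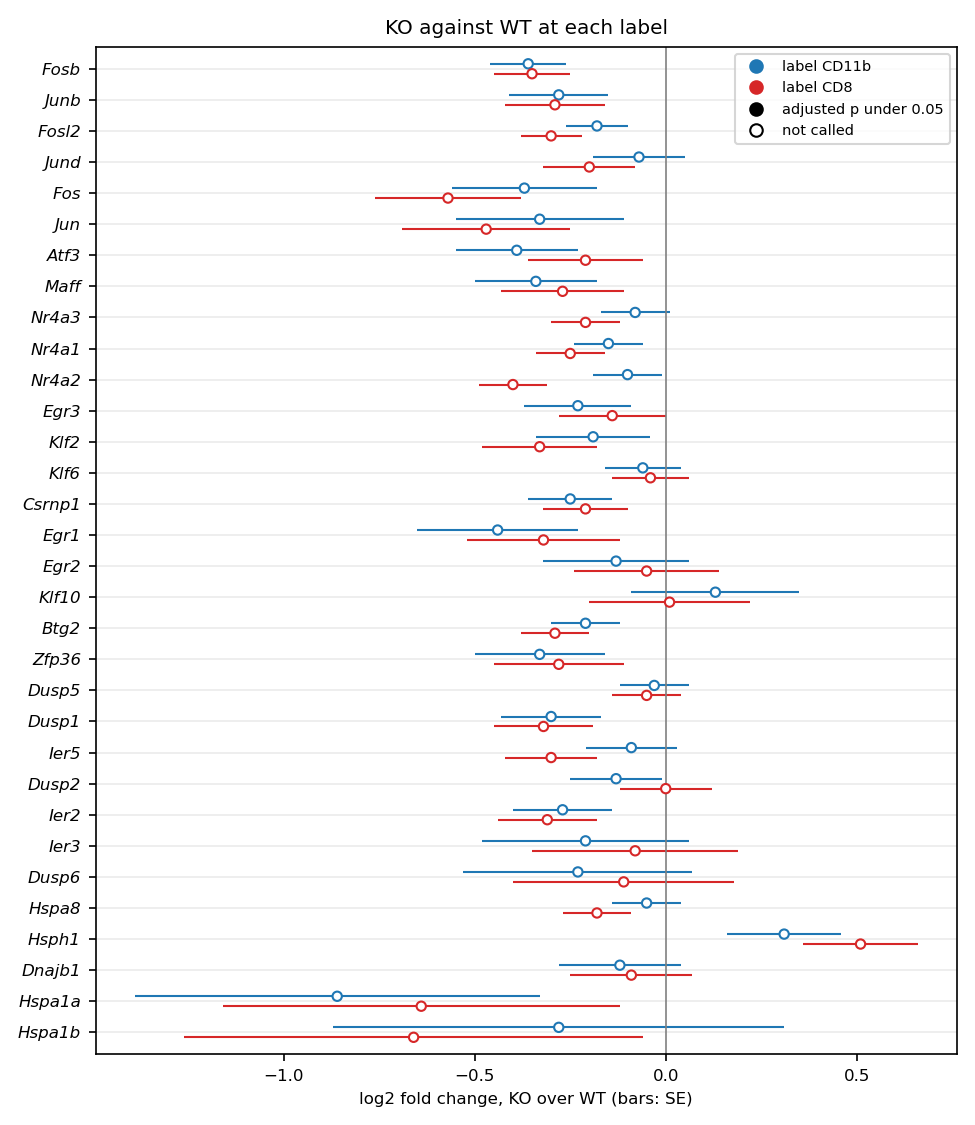
Log2 fold change of KO over WT for each gene at the label CD11b (blue) and the label CD8 (red), with bars for the SE. All points are open because no gene had an adjusted p under 0.05 in edgeR, and 30 of 32 points lie under 0 at each label.

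The KO effects of the 2 labels were compared directly in the same model. Of the 32 genes 0 were called by edgeR (0.0206% of all genes), 0 by DESeq2 (0.0757%) and 0 by limma-voom (0.0275%), and 1, Nr4a2, had an unadjusted p under 0.05 (5.46% of all genes). For Nr4a2 the KO effect at the label CD8 minus that at the label CD11b was −0.30 ± 0.12 SE on the log2 scale (edgeR adjusted p = 0.866). The pathway lists outside the set held 0 called genes for KO against WT at either label. Median values were −0.11 and −0.06 for the other early response genes, −0.02 and −0.04 for the upstream genes, −0.07 and −0.02 for the other chaperones and 0.06 and 0.05 for the other phosphatases, at the labels CD11b and CD8. The 2 labels' comparisons share no library, but they share the estimate of the spread. Whether 1 mouse gave both subsets is not given, so they cannot be taken as independent.

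Markers of other cells were summed in each library for comparison. The summed level of 12 B cell markers was 569 to 1152 CPM in CD8 WT and 1025 and 2782 CPM in CD8 KO, the higher value in CD8 KO 2. For the label CD11b the same sum was 288 to 368 CPM in WT, against 283 and 624 CPM in KO. Cd79a, a B cell receptor component, reached 43.7 CPM in CD8 KO 2 and 5.02 to 13 CPM in the other libraries labelled CD8. The summed level of 12 red pulp macrophage markers was 558 to 747 CPM in CD8 WT and 801 and 817 CPM in CD8 KO, and that of 10 mature dendritic cell markers was 2938 to 3127 CPM in CD11b WT and 2708 and 2739 CPM in CD11b KO. In CD8 WT and CD8 KO the latter ranges overlapped, at 3008 to 3546 and 2884 to 3309 CPM. The summed level of 10 neutrophil markers was 23.5 to 38.3 CPM in CD8 WT and 5.31 and 8.56 CPM in CD8 KO, of which Mmp9 alone made up 19.4 to 32.1 CPM in WT, against 3.95 and 3.83 CPM in KO. For the label CD11b that sum was higher in KO, at 2.92 and 3.33 CPM against 1.21 to 2.42 CPM in WT. No marker of these lists was at 0 in all libraries. Only 1 of the 10 neutrophil and 3 of the 5 plasma cell markers had counts in every library, and the neutrophil sums at the label CD11b were near 0. The part of these markers in the values of the 32 genes was not tested.

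Within groups, part of the set varied together with the number of the library, a pattern noticed after the values were seen. In 12 of 32 genes the library numbered 1 was the highest in each of the 4 groups, against 4.12% of all genes tested. These were Fos, Fosb, Jun, Junb, Atf3, Dusp1, Klf2, Csrnp1, Hspa1a, Hspa1b, Hspa8 and Dnajb1. Some margins were narrow. In CD11b KO, library 1 was 1.01 times library 2 for Hspa8 and Klf2 and 1.02 times for Fosb. In CD8 WT it was 1.02 times library 2 for Dnajb1. In 0 genes was the library numbered 1 the lowest in each group (3.52% of all genes). The library numbered 2 was the lowest in each group for 11 genes (4.02% of all genes) and the highest in each for 0 (3.46%). The labels do not say that a number marks a mouse, day or batch shared between groups.

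The inducible HSP70 genes showed this most. Hspa1a stood at 23.9, 5.51 and 8.74 CPM in CD11b WT, 9.69 and 4.42 CPM in CD11b KO, 20.8, 6.61 and 11.4 CPM in CD8 WT, and 10.6 and 5.92 CPM in CD8 KO. Library 1 was thus 4.34, 2.19, 3.15 and 1.79 times library 2 in these groups. Hspa1b stood at 13.1, 4.9 and 6.98 CPM in CD11b WT, 9.38 and 4.33 CPM in CD11b KO, 14.9, 2.72 and 5.2 CPM in CD8 WT, and 7.25 and 2.26 CPM in CD8 KO, with ratios of 2.66, 2.17, 5.49 and 3.2. The copies share sequence, as their promoters above show, and 47.1% of the 100-base windows of the Hspa1a transcript occur exactly in Hspa1b. Reads that map to both were not counted, so their values rest on the unique parts of each gene and the division between them is uncertain.

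Fos was higher in library 1 than in library 2 by 1.82, 1.26, 1.66 and 1.28 times in CD11b WT, CD11b KO, CD8 WT and CD8 KO, and Jun by 1.96, 1.21, 1.71 and 1.35 times. Not all early genes took part. For Nr4a3, whose libraries were at 5285, 6477 and 5671 CPM in CD11b WT, 5104 and 5865 CPM in CD11b KO, 5332, 5919 and 4891 CPM in CD8 WT, and 4801 and 4534 CPM in CD8 KO, the ratios were 0.816, 0.87, 0.901 and 1.06. Dusp5 had ratios of 0.798, 0.959, 0.997 and 1.03. Nr4a2 had ratios of 0.893, 0.885, 0.98 and 1.08. Egr1 was highest in library 1 in 3 of the 4 groups, with a ratio of 1.97 in CD8 WT and 0.888 in CD11b KO.

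**Figure D4:**
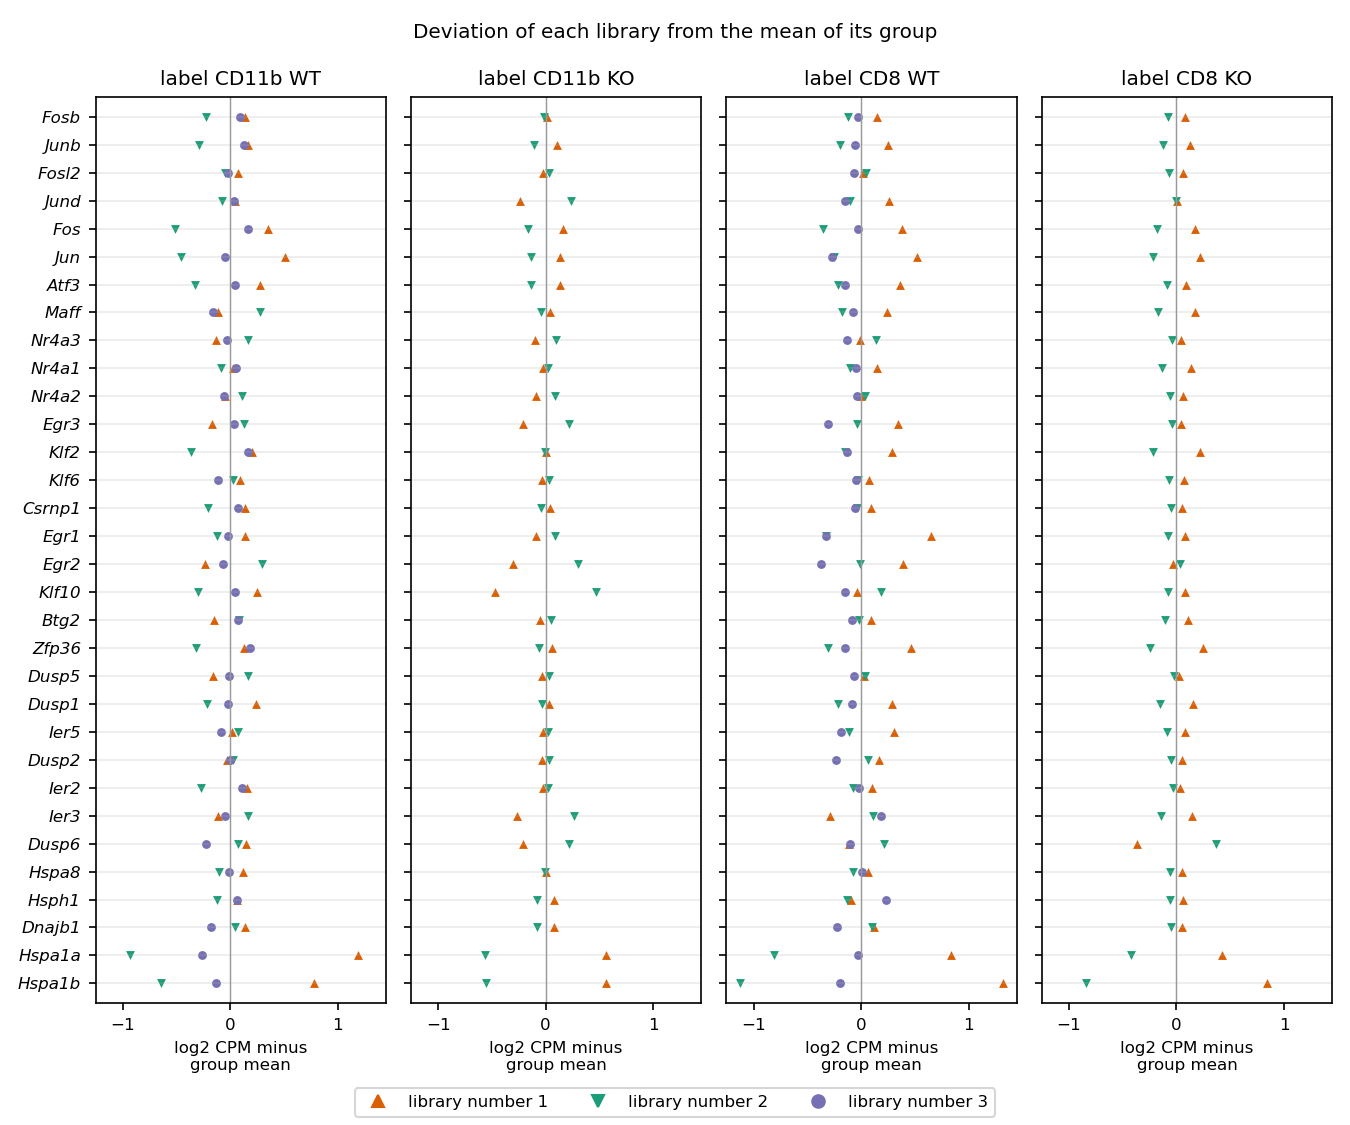
Deviation of each library from the mean of its group, as log2 CPM minus the group mean, for each gene in each of the 4 groups; orange, green and purple mark library numbers 1, 2 and 3. Hspa1a and Hspa1b spread most, and for Fos, Junb and Atf3 the orange point lies right of the green point in every group.

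The libraries differed in how much of the set lay above the mean of the group. CD8 WT 1 was above it for 27 of 32 genes and CD8 KO 1 for 30, whereas CD8 WT 3 was above it for 3 and CD8 KO 2 for 2. Over all genes tested, the share above the group mean was 48.1% to 51.4% in the 10 libraries. At the label CD11b the spread was less one-sided, with 23 genes in CD11b WT 1, 13 in CD11b WT 2, 15 in CD11b WT 3, 15 in CD11b KO 1 and 17 in CD11b KO 2. Deviations from the group mean over the 32 genes correlated at 0.622 to 0.758 between libraries numbered 1 (6 pairs of groups) and at 0.624 to 0.858 between libraries numbered 2 (6 pairs). Between CD11b WT 3 and CD8 WT 3 the value was 0.124. Without Hspa1a and Hspa1b the ranges were 0.237 to 0.439 for number 1 and 0.421 to 0.622 for number 2. Over all genes tested they were −0.0343 to 0.061 and −0.0257 to 0.0358. These are correlations across genes, which are not independent, and in groups of 2 libraries the deviations are mirror images.

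Some library measures moved with the number. The share of reads that fell in no gene was highest in the library numbered 1 in each group, at 36.09% against 33.1% and 34.42% in CD11b WT, 38.03% against 34.97% in CD11b KO, 41.44% against 40.69% and 39.08% in CD8 WT, and 38.48% against 37.46% in CD8 KO. The summed level of 12 cDC2 markers was also highest in the library numbered 1 in each group. The mitochondrial share of gene counts was 5.44% to 6.05% over all libraries. Their part in the pattern was not tested. Among genes outside the set, 7 of 36 other early response genes had library 1 highest in each group, namely Ppp1r15a, Nfkbiz, Cebpd, Pim1, Rgs1, Per1 and Zfp36l2. The same held for 1 of 21 upstream genes, Hsf1, for 0 of 19 other chaperones and for 0 of 14 other phosphatases. Over all genes tested the share was 4.12%, and 1 of 21 lies near it. Hsf1 stood at 39.2 CPM in both CD8 WT 1 and CD8 WT 2. The upstream gene Mrtfb, the early response gene Arc and the chaperone gene Hspa4 were lowest in library 1 in each group (3.52% of all genes).

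The spread within groups depended on which genes the set was compared with. The median within-group SD of log2 CPM was 0.20 for the 32 genes, beside 0.36 for all genes tested. Among genes of at least 100 CPM it was larger for the set, at 0.15 for the 23 members and 0.11 for all 1728 genes. The steadiest genes were Fosl2 (0.06), Nr4a2, Hspa8 and Klf6 (0.08 each) and Dusp5 (0.10). The most variable were Hspa1b (0.99), Hspa1a (0.88), Jun (0.41) and Fos (0.36).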

How the data were processed

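STAR 2.5.0a and the build GRCm38 are named in the submitters' processing notes. The authors deposited raw counts per gene for each strand setting. The column used held 16.1 times the counts of the opposite strand. Annotation release, trimming and duplicate handling are not given in the sources used here. Symbols came from GENCODE (53274 of 53379 genes matched). Reads mapping to several places (21.73% to 25.53%) and lines naming no gene were left out.

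CPM used TMM-scaled library sizes. After filterByExpr, 14528 genes were fitted in edgeR 4.0.16 (R 4.3.3) by quasi-likelihood with 4 group means over 10 libraries, with Benjamini-Hochberg adjustment in each comparison and a threshold of 0.05. An SE is the log2 fold change divided by the root of F. Alternatives used DESeq2 1.42.0, limma 3.58.1, other filters and scalings, and fewer libraries. The members and lists were chosen with earlier results of these data known. Library values are given for the 16 called genes with the smallest adjusted p, Atf3 and Hspa1a, and, chosen after their values were seen, Hspa1b and Nr4a3. Spleens came from individual mice, and whether 1 mouse gave both subsets is not given in the sources used here.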

Additional observations from a re-analysis of the deposited data

How the results depend on the processing

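Precision is limited by 2 or 3 libraries per group. In the KO comparison of the label CD11b, 1 gene was called with no filter on low counts, and leaving out 1 library gave 0 to 1 (1 without CD11b WT 2, Fosb). At the label CD8, 4 were called with no filter, 2 with DESeq2, 4 with limma-voom, 1 without the 4 libraries numbered 1 (chosen after seeing the data) and 1 with only the libraries compared, and leaving out 1 library gave 0 to 1 (1 without CD11b WT 1 or CD11b WT 2, Nr4a2). With no filter, edgeR called Fosb at the label CD11b (adjusted p = 0.0104) and Fos, Fosb, Jun and Nr4a2 at the label CD8. At the label CD8 the edgeR adjusted p with no filter was 2.34e-05 for Fos, against 0.479 in the main fit. For Jun it was 0.00267, against 0.737. The share of all genes called with no filter is not given here. The cause of these differences between settings was not tested. For the label comparisons the count stayed between 18 and 19 of 32 in WT and between 14 and 20 in KO over all alternatives. No called gene changed direction. Over all genes, deviations of same-numbered libraries correlated at under 0.1. Within a genotype, those of the 2 labels correlated at 0.0167 to 0.0463, and differently numbered ones at −0.0358 to 0.0168. Values this small cannot decide whether the numbers pair samples. With a replicate block on the number, the counts were 0 at the label CD11b, 1 at the label CD8, 0 for the difference, 19 in WT and 20 in KO, and the block on the mouse, as genotype and number, also gave 0, 19 and 20 for the last 3. Both blocks added Junb in WT, and Junb, Ier5 and Nr4a3 in KO.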
